A study of Rattus norvegicus with 12 samples.

Results

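The DNA methylation of ventral prostate epithelial cells was compared between the F3 generation vinclozolin lineage and the F3 generation control lineage over broad pieces of the genome. The epithelial cells gave 6 of the 12 pools of the series, 3 per lineage. The members were chosen by their label alone, and their counts were summed into 261882 bins of 10 kb and 2629 bins of 1 Mb on the 20 autosomes of the rat build Rnor 6.0. A bin of this size holds many 100 bp windows, so that a small shift shared by neighbouring windows adds up in it.

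Gestating F0 generation females of the outbred strain Hsd:Sprague Dawley SD received vinclozolin at 100 mg/kg/day or the vehicle dimethyl sulfoxide as control on days 8 to 14 of gestation, and only these females were treated. Their descendants were bred without sibling or cousin crosses to the F3 generation, whose males gave ventral prostates at 19 to 21 days of age. Epithelial cells were those that settled from the digested tissue, and stromal cells, which gave the other 6 pools, were those that stayed in the supernatant. Each pool combined several rats of 1 lineage, and per the methods the control pools together held fewer rats than the vinclozolin pools. The labels do not name the rats, and p-values therefore measure the spread between pools, not between rats. In edgeR's tests the estimate of this spread is partly shared over bins.

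Vinclozolin is a fungicide whose breakdown products block the androgen receptor, on which growth of the prostate epithelium depends. Methylation of cytosine in CpG dinucleotides is copied when DNA replicates, is dense over most of the mammalian genome and over transposons, and is low at many active promoters and enhancers. MeDIP-Seq, methylated DNA immunoprecipitation followed by sequencing, captures DNA fragments with an antibody against methylated cytosine. The count of a bin rises with the methylation of its DNA, with its number of CpG sites and with its copy number, which the counts alone do not separate. A difference is therefore described as a difference in MeDIP-Seq signal.

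The epithelial pools held 60600121 to 109250697 counts, in which a read that lies over several windows is counted in each of them. Control pool 1 was the shallowest and the most uneven, with 16.2% of its autosomal counts in the top 1% of windows against 12.8% to 14.4% in the other 5 pools. Values are given as CPM, counts scaled to the same autosomal total in each pool, with library sizes adjusted by TMM factors between 0.989 and 1.006. A bin was called when edgeR's quasi-likelihood test gave an adjusted p under 0.05 over all bins tested.

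At 1 Mb the lineages differed in both directions. Of 2629 bins, 50 were higher in the vinclozolin lineage (1.9% of the bins tested) and 46 were lower (1.75%). The differences were small for each bin. The raised bins had a median log2 fold change of 0.16, with a range of 0.07 to 0.29, and the lowered bins had a median of -0.13, with a range of -0.19 to -0.07. In percent, the median gain was 11.8% with a highest value of 22.3%, and the median change of the lowered bins was -8.82% with a lowest value of -12.7%. Over all 1 Mb bins the median log2 fold change was 0.01. All 96 called bins had 3 vinclozolin pools on 1 side of the 3 control pools, which was also the case for 25.3% of all bins. This separation largely follows from the call and is no further support for it. In edgeR's quasi-likelihood test 564 bins had an unadjusted p under 0.05.

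The number of called bins depended on each of the 6 pools. Without control pool 1, 2 or 3 the count was 593, 41 and 29, and without vinclozolin pool 1, 2 or 3 it was 296, 7 and 3. Of those bins, 96, 40, 29, 95, 7 and 3 were among the 96 of all 6 pools.

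Among the called bins, the rise with the smallest p was in bin 10000001 to 11000000 of chromosome 8. The control pools had 349, 326 and 327 CPM and the vinclozolin pools 396, 421 and 407 CPM, so that every vinclozolin pool lay above every control pool. The log2 fold change was 0.29 ± 0.03 (SE), with an adjusted p of 0.00364 in edgeR's quasi-likelihood test. Leaving out any 1 pool kept the call, with a log2 fold change of 0.27 to 0.32. Within this bin, 82.8% of the 10 kb bins were higher in the vinclozolin lineage. In the test of 10 kb bins 14 of them were called higher, against 0.108% of all 10 kb bins. These 10 kb counts are parts of the 1 Mb count that gave the call. Such shares, here and for the bins below, therefore describe a called bin and do not support its call separately.

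Bin 16000001 to 17000000 of chromosome 6 had 363, 338 and 343 CPM in the control pools and 407, 421 and 405 CPM in the vinclozolin pools, a log2 fold change of 0.24 ± 0.03 (SE; edgeR adjusted p = 0.00386). Bin 21000001 to 22000000 of chromosome 9 had 346, 319 and 326 CPM against 381, 396 and 388 CPM, a log2 fold change of 0.24 ± 0.03 (SE; edgeR adjusted p = 0.00472). In both, the lineages did not overlap and the call stood without any 1 pool. The bin at 179000001 to 180000000 of chromosome 1 had the highest levels of the raised bins named here, with 599, 539 and 560 CPM in the control pools and 663, 698 and 693 CPM in the vinclozolin pools. In it 93.9% of the 10 kb bins were higher and 16 were called higher in the test of 10 kb bins. Its log2 fold change of 0.28 ± 0.04 had an edgeR adjusted p of 0.0093.

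The other two named raised bins lay at 21000001 to 22000000 of chromosome 7 (584, 538 and 535 CPM in the control pools, 642, 662 and 666 CPM in the vinclozolin pools) and at 107000001 to 108000000 of chromosome 15 (476, 458 and 493 CPM against 536, 572 and 554 CPM). Without vinclozolin pool 3, the bins of chromosomes 1, 7 and 15 kept log2 fold changes of 0.27, 0.24 and 0.22 with an edgeR adjusted p of 0.0596 each.

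**Figure D1:**
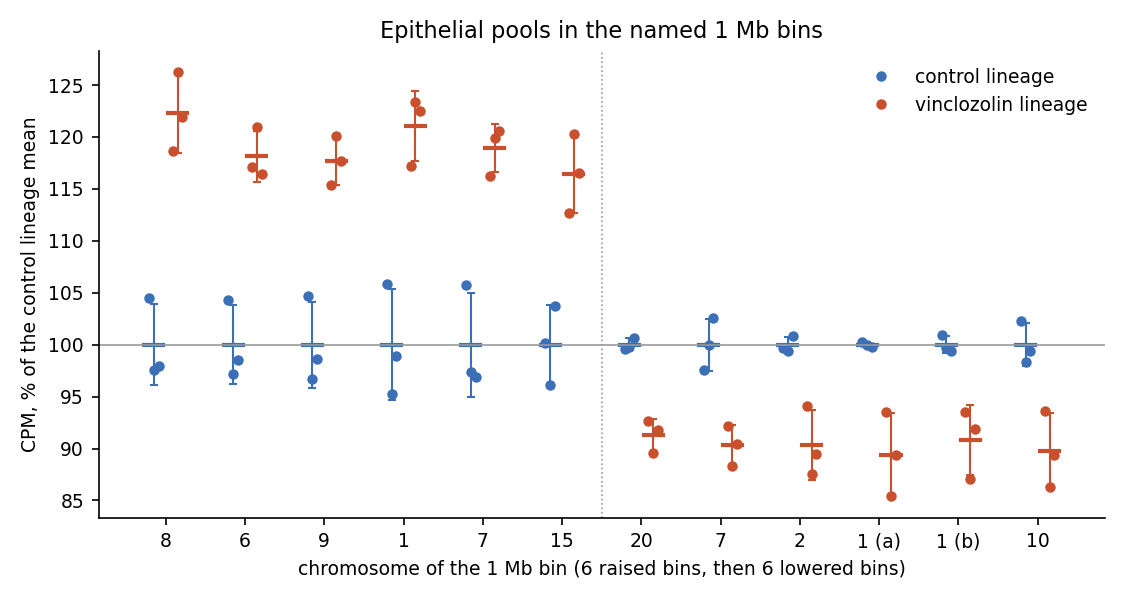
CPM of each epithelial pool in the 12 named 1 Mb bins, as percent of the control lineage mean (y axis), by chromosome (x axis; 1 (a) is the bin from 221000001 and 1 (b) the bin from 218000001 of chromosome 1). Points are pools, short bars are means and error bars are SD (n = 3). In each of the 6 raised bins all vinclozolin pools sit above all control pools, and in each of the 6 lowered bins all sit below them.

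The named raised bins were also followed in steps of 100 kb. At the chromosome 8 bin the log2 ratio of the lineages was 0.08 in the step before the bin, 0.15 and 0.09 in its first steps, -0.06 in the next, which held only 10.2 CPM in the control lineage, and then 0.34. It stayed between 0.28 and 0.40 over 6 steps and then fell to 0.17 in the last step of the bin and 0.04 past its end. The ratio on chromosome 9 went from 0.02 to 0.36 and, after 7 steps, of which the last lay past the end of the bin, from 0.43 to 0.03. The stromal ratio also rose at the same step at both places, although on chromosome 8 it was already at 0.12 to 0.26 in the 7 steps before, and it fell at the same step on chromosome 9 and 1 step later on chromosome 8.

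**Figure D2:**
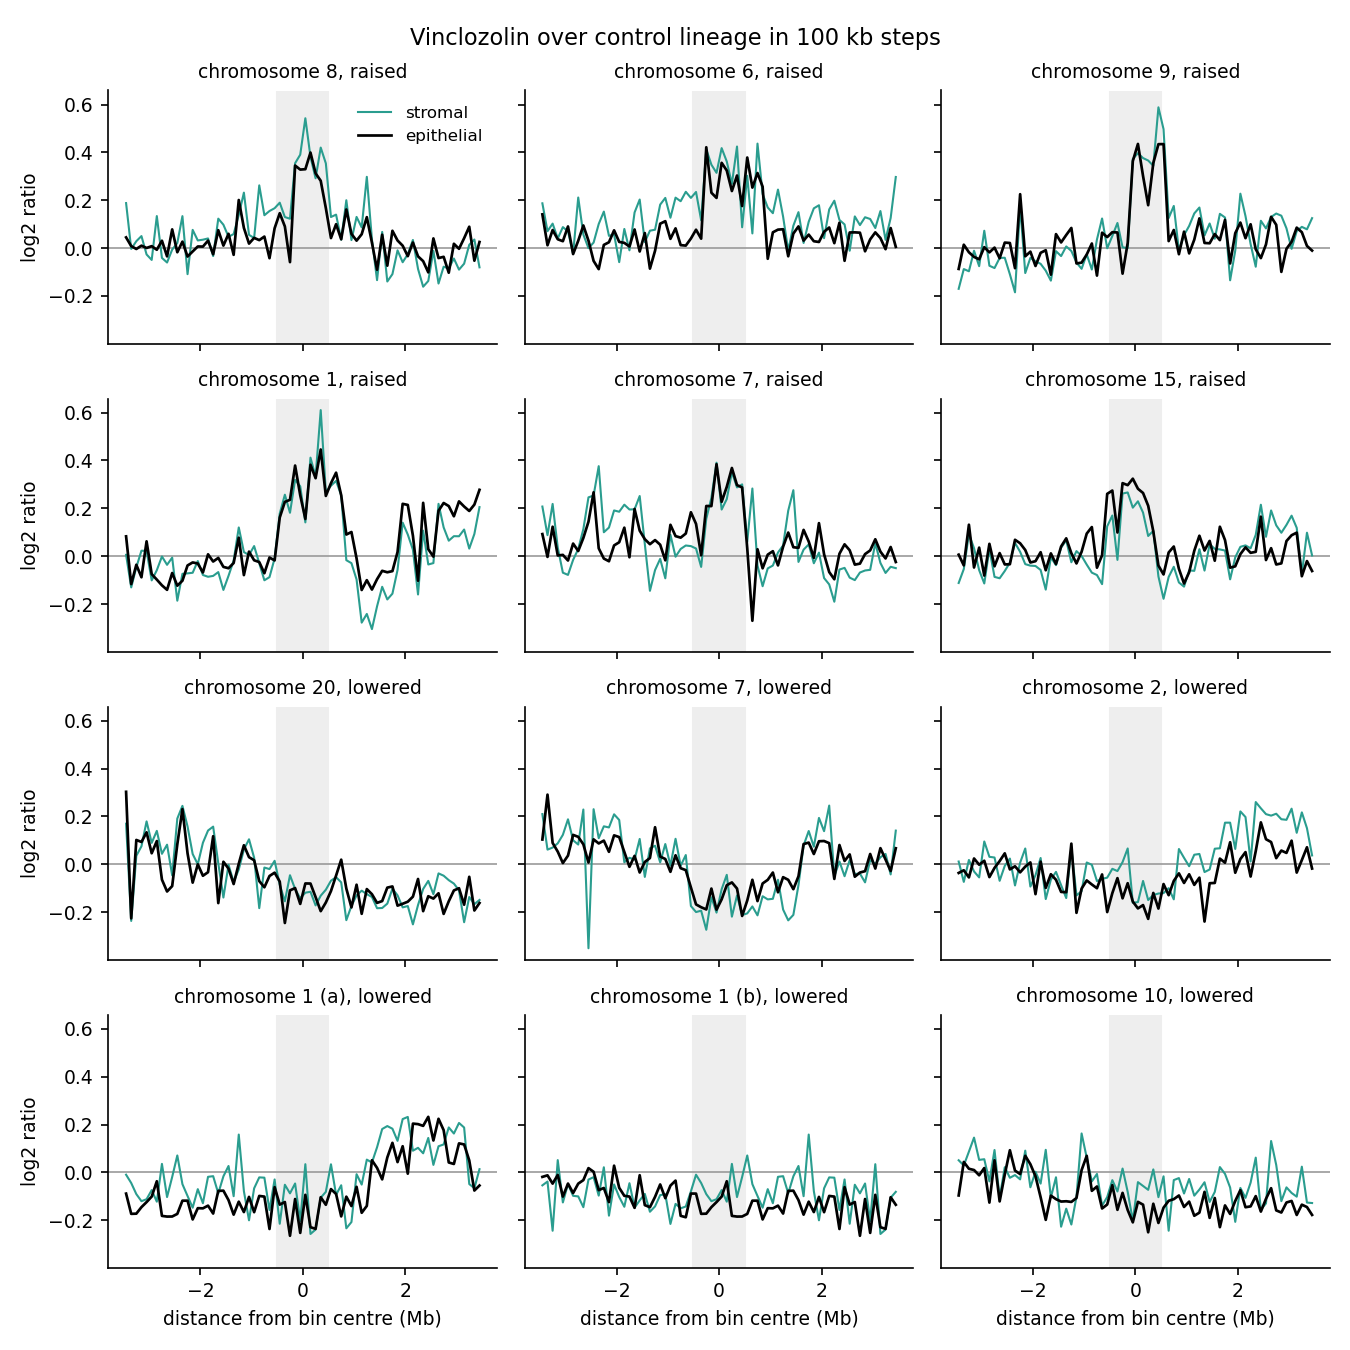
Log2 ratio of mean CPM in the vinclozolin lineage over mean CPM in the control lineage (y axis) in 100 kb steps, by distance in Mb from the centre of each named 1 Mb bin (x axis), for epithelial cells (black) and stromal cells (green). The grey band is the bin. The rise on chromosome 9 begins and ends within 1 step, the rises of the other raised bins have less even edges, and lowered bins on chromosomes 1, 10 and 20 lie within longer stretches under 0.

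Bins of 200 kb gave the length of called stretches. Of 13106 bins, 201 were called higher (1.53%) and 185 lower (1.41%). The raised bins formed 101 runs of adjacent called bins, of which 36 held 2 or more bins, and the lowered bins formed 139 runs, of which 24 did. The longest raised runs had 11 bins, or 2200 kb, each. They lay at 161800001 to 164000000 of chromosome 2, with a median log2 fold change of 0.24, and at 95200001 to 97400000 of chromosome 14, with a median of 0.21. At 1 Mb the chromosome 2 run belonged to 6 adjacent called bins from 158000001 to 164000000, with log2 fold changes of 0.10 to 0.25. Its bin from 162000001 had 553, 492 and 551 CPM in the control pools and 615, 639 and 640 CPM in the vinclozolin pools, and 95.3% of its 10 kb bins were higher.

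The gene content of the called bins could be named only in part. Symbols come from the lists of the study, whose positions are in Rnor 6.0, and were checked against RefSeq for symbol and chromosome. For most symbols the listed position is that of a differentially methylated region, with the gene anywhere within 10 kb of it, so that a bin said to hold a gene holds such a position, and a gene named with a 10 kb bin may lie outside that bin. Their neighbours were read from the gene order of the RefSeq assembly GRCr8. The lists hold genes that the study itself tied to changes in methylation or RNA, and most symbols named here come from its methylation calls in the stromal pools, so the presence of a gene says nothing independent of the data. None of the 6 named raised bins held a gene of these lists. The study's epithelial list, drawn from the same pools, does have raised regions without a gene in those of chromosomes 1, 6, 7, 8 and 9. Among the other raised 1 Mb bins, the lists placed Ssbp2, a single-stranded DNA binding protein, on chromosome 2, Zdhhc17, a palmitoyltransferase, on chromosome 7, and the collagen genes Col9a1 and Col19a1 on chromosome 9. The bin of the collagen genes had a log2 fold change of 0.07 close to the threshold (edgeR adjusted p = 0.0472). It was the 1 raised bin that was not higher in stromal cells (log2 fold change -0.0026). Its difference between the cell types had an unadjusted p of 0.00346 in edgeR's interaction test. The adjusted p was 0.15, a value that was also the smallest of all 1 Mb bins. That test did not pair the epithelial and stromal pools of the same number.

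The strongest lowering by p was at 3000001 to 4000000 of chromosome 20, where the lists place RT1-N2, RT1-N3 and RT1-S2, class I genes of the rat major histocompatibility complex, whose proteins present peptides to T cells. The control pools had 482, 483 and 487 CPM and the vinclozolin pools 448, 433 and 444 CPM. The log2 fold change was -0.13 ± 0.02 (SE; edgeR adjusted p = 0.0093), or -0.13 with an adjusted p of 0.0616 without vinclozolin pool 3. Only 19% of its 10 kb bins were higher in the vinclozolin lineage.

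Bin 11000001 to 12000000 of chromosome 7 holds Eef2, the elongation factor that moves the ribosome along mRNA, Dot1l, a histone methyltransferase, the zinc transporter Slc39a3, the mitochondrial ribosomal protein Mrpl54, the protease Sppl2b and the RNA-binding Lsm7. It had 450, 461 and 473 CPM in the control pools and 426, 408 and 417 CPM in the vinclozolin pools, with a log2 fold change of -0.15 ± 0.02 (SE; edgeR adjusted p = 0.0124). The highest vinclozolin pool lay below the lowest control pool by more than the spread within the vinclozolin lineage, 8.82 CPM (SD).

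Lrp5, a co-receptor of Wnt, lies in bin 218000001 to 219000000 of chromosome 1, which had 409, 404 and 403 CPM in the control pools and 379, 353 and 373 CPM in the vinclozolin pools. None of its 10 kb bins was called on its own. Pygo2, a co-activator of beta-catenin, lies in bin 188000001 to 189000000 of chromosome 2 with Shc1, an adaptor of receptor tyrosine kinases, and Pbxip1, which binds PBX homeodomain proteins. That bin had 452, 451 and 457 CPM against 427, 397 and 406 CPM. The log2 fold changes were -0.14 ± 0.02 and -0.15 ± 0.02 (SE), with edgeR adjusted p of 0.0194 and 0.0159. Within these bins 13% and 14% of the 10 kb bins were higher in the vinclozolin lineage.

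Pygm, the glycogen phosphorylase of muscle, Rasgrp2, an exchange factor for Rap GTPases, and the peptidase-like Naaladl1 lie in bin 221000001 to 222000000 of chromosome 1, with 452, 451 and 450 CPM in the control pools and 422, 385 and 403 CPM in the vinclozolin pools. Its log2 fold change was -0.16 ± 0.03 (SE; edgeR adjusted p = 0.017). The named lowered bins had adjusted p of 0.0659 to 0.0733 without vinclozolin pool 2 in the bins of chromosomes 1, 2, 7 and 10, and of 0.0616 to 0.0999 without vinclozolin pool 3 in all 6. The chromosome 2 bin also missed the threshold without control pool 3, with an adjusted p of 0.0562.

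Chromosome 10 held the most lowered bins. Of its 113 bins of 1 Mb, 14 were lowered and 0 were raised. At 83000001 to 89000000, 6 adjacent bins were called, with log2 fold changes of -0.16 to -0.13. The first holds Ttll6, a tubulin glutamylase, and had 466, 448 and 452 CPM in the control pools and 426, 393 and 407 CPM in the vinclozolin pools (edgeR adjusted p = 0.0198). The second holds Hoxb13, the homeobox transcription factor of the posterior body axis that marks prostate epithelium and binds with the androgen receptor. It had 512, 522 and 522 CPM in the control pools and 501, 456 and 462 CPM in the vinclozolin pools, with a log2 fold change of -0.13 ± 0.03 (SE; edgeR adjusted p = 0.0471). Like every other lowered 1 Mb bin, it was not called without vinclozolin pool 3. The fourth holds Med24, a subunit of the Mediator complex, Csf3, a growth factor of granulocytes, and Mien1, which in GRCr8 is the neighbour of the receptor tyrosine kinase gene Erbb2. In that bin only 7% of the 10 kb bins were higher in the vinclozolin lineage. The sixth holds Eif1, a translation initiation factor, and Gast, the gastrin gene, beside the keratin genes Krt16 and Krt17 in GRCr8, and had 559, 560 and 569 CPM in the control pools against 532, 482 and 501 CPM in the vinclozolin pools.

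Chromosome 10 as a whole moved with these bins. It took 4.56%, 4.64% and 4.62% of the autosomal counts of the control pools and 4.54%, 4.39% and 4.42% of those of the vinclozolin pools. Vinclozolin pool 1 lay close to the control pools and the other 2 lay lower. With the 20 autosomes tested together, chromosome 10 was the 1 called (5%), against 8 autosomes, 4 in each direction, without TMM. The share of chromosome 10 was 4.61% ± 0.0402 in the control and 4.45% ± 0.0799 in the vinclozolin lineage (SD, n = 3). The dispersion behind the test was fitted with all 20 autosomal sums, so that its p does not measure the spread of the chromosome 10 pools alone. Chromosome 10 had a log2 fold change of -0.05 ± 0.01 (SE; edgeR adjusted p = 1.79e-07). It was not called without vinclozolin pool 2 (log2 fold change -0.04, adjusted p = 0.0715) or without vinclozolin pool 3 (-0.05, adjusted p = 0.401), and 3 and 4 autosomes were called without vinclozolin pool 1 and without control pool 1. At the other end, chromosome 2 had the largest rise, from 9.49% ± 0.03 to 9.63% ± 0.04 of the counts (SD, n = 3), a log2 fold change of 0.02 that did not pass the test (edgeR adjusted p = 0.148). Of the 267 bins of 1 Mb of chromosome 2, 10 were raised and 1 was lowered, against 5 raised of 112 on chromosome 15. The 6 adjacent raised bins from 158000001 to 164000000 were among the 10.

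**Figure D3:**
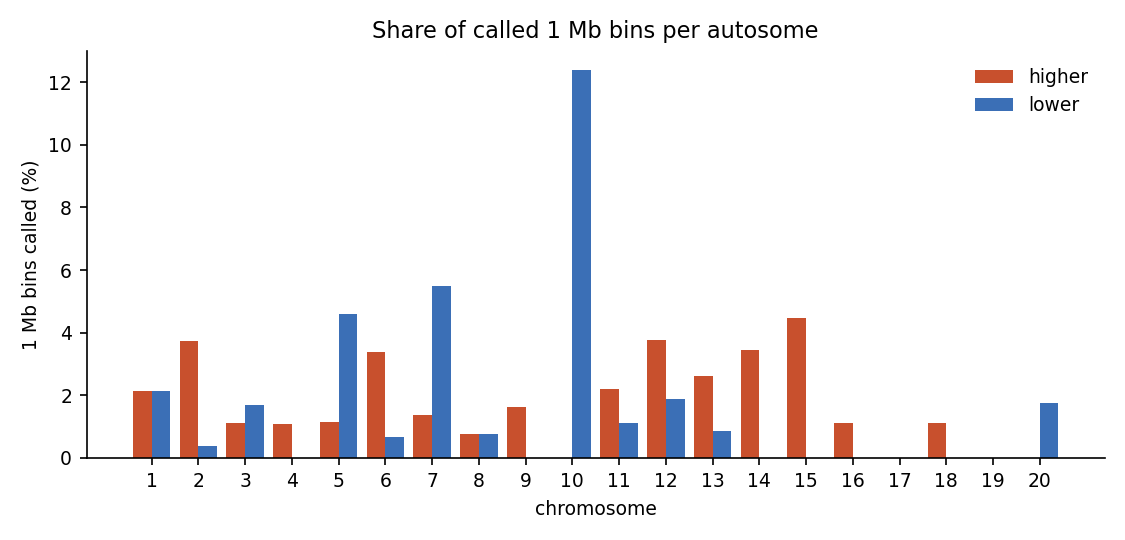
Percent of the 1 Mb bins of each autosome (x axis) that were called higher or lower in the vinclozolin lineage (y axis). Chromosome 10 has the tallest bar, 14 lowered bins of 113 tested, and no raised bin.

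Examples of genes in further lowered 1 Mb bins follow. On chromosome 3 the bin from 111000001 holds Dll4, a ligand of Notch receptors, and Chac1, a glutathione-cleaving enzyme, and the bin from 160000001 holds Wfdc5 and Wfdc12, small secreted proteins of the protease inhibitor type. On chromosome 7 the bin from 140000001 holds Dhh, a ligand of the Hedgehog receptor Patched. On chromosome 5 the bin from 153000001 holds Grhl3, a transcription factor of surface epithelia, and Clic4, a chloride channel protein, and the bin from 138000001 holds Slc2a1, a glucose transporter, and Guca2b, uroguanylin. On chromosome 13 the bin from 48000001 holds the kinase gene Cdk18, which in GRCr8 lies close to Slc45a3, a gene known for high expression in prostate epithelium. These genes were chosen for naming after the bins were called, and the lowered bins also held listed genes of other kinds, such as the ribosomal protein genes Rpl8 and Rpl19 and the proteasome subunit gene Psmb6.

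At 10 kb the differences were rarer and larger. The test took 258643 bins, those whose counts added up to 60 or more in all epithelial pools together. Of these, 279 were higher (0.108%) and 165 lower (0.0638%) in the vinclozolin lineage, and 25712 (9.94%) had an unadjusted p under 0.05. The raised bins had a median log2 fold change of 0.50, with a range of 0.35 to 1.62, and the lowered bins a median of -0.51, with a range of -2.20 to -0.38. The pools of the lineages did not overlap in 279 of the 279 raised and 163 of the 165 lowered bins, against 39188 (15.15%) of all bins tested. The test calls bins whose lineages lie apart, so this separation largely follows from the call. Each pool weighed on the count here too. Without control pool 1, 2 or 3 the count of called bins was 1593, 258 and 749, and without vinclozolin pool 1, 2 or 3 it was 81, 23 and 106. Raised bins outnumbered lowered bins in these counts except without control pool 2 (102 and 156) and without control pool 3 (313 and 436), and lowered bins were also the more numerous with loess offsets by coverage in place of TMM (343 and 506).

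Raised 10 kb bins lay together and lowered ones apart. The 279 raised bins formed 220 runs of adjacent bins, of which 40 held 2 or more, and 193 of them lay within the 50 raised 1 Mb bins. The 165 lowered bins formed 164 runs, of which 1 held 2 bins, and 31 of them lay within the 46 lowered 1 Mb bins. The longest raised run covered 7 bins, 70 kb, at 21680001 to 21750000 of chromosome 7, with log2 fold changes of 0.39 to 0.85. The only lowered run of 2 bins lay at 77660001 to 77680000 of chromosome 5, where control pool 1 alone had 6.69 CPM in the first bin against 1.56 and 1.76 CPM in the other control pools and 1.21 to 1.42 CPM in the vinclozolin pools.

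The most certain rise of a 10 kb bin was at 19640001 to 19650000 of chromosome 13. The control pools had 3.11, 3.35 and 3.33 CPM and the vinclozolin pools 6.07, 6.64 and 6.23 CPM, so that the lowest vinclozolin pool lay far above the highest control pool. The log2 fold change was 0.95 ± 0.10 (SE; edgeR adjusted p = 8.47e-06), and it was 0.91 to 0.98 without any 1 pool. The bin belonged to a run of 3 raised bins, and a further named bin lay 50 kb along at 19690001, with 3.79, 3.76 and 3.47 CPM against 6.46, 6.1 and 5.92 CPM.

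Other named rises had the same form. On chromosome 2, the bin from 114940001 had 8.45, 8.16 and 8.86 CPM in the control pools and 13 CPM, 13.2 CPM and 13.3 CPM in the vinclozolin pools (log2 fold change 0.63 ± 0.08, edgeR adjusted p = 0.000191). On chromosome 7, the bin from 21700001 had 2.88, 3.17 and 3.73 CPM against 6.28, 6.04 and 5.32 CPM (0.85 ± 0.11, edgeR adjusted p = 0.000224). On chromosome 3, the bin from 96280001 belonged to a run of 5 and had 4.62, 5.29 and 4.29 CPM against 8.71, 7.28 and 7.21 CPM. On chromosome 1, the bin from 179350001 lay within the raised 1 Mb bin described above and had 6.38, 5.09 and 5.73 CPM against 9.31, 9.22 and 8.64 CPM. In each of these the lineages did not overlap, and no call was lost by leaving out 1 pool. The study's epithelial list has a raised region without a gene in the bins of chromosomes 2 and 7.

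The most certain lowering of a 10 kb bin was at 3140001 to 3150000 of chromosome 20, with RT1-N2 and Rps2-ps2 as the listed genes. The control pools had 6.11, 6.1 and 5.94 CPM and the vinclozolin pools 2.81, 3.36 and 3.56 CPM, a log2 fold change of -0.90 ± 0.11 (SE; edgeR adjusted p = 4.95e-05). Class I genes of this complex are near-identical copies and differ between rats in sequence and number, so that reads of 1 copy can map to another and the gene behind the change is uncertain. The call held without any 1 pool.

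The bin at 138690001 to 138700000 of chromosome 5, with Guca2b, the gene of the intestinal peptide uroguanylin, as the listed gene nearby, had 10.4, 8.4 and 7.97 CPM in the control pools and 5.57, 5.23 and 5.74 CPM in the vinclozolin pools (log2 fold change -0.69 ± 0.10, edgeR adjusted p = 0.000496). The named lowered bins on chromosomes 3, 6 and 11 held no gene of the lists. The lowest fold of these was at 23690001 of chromosome 3, with 2.86, 3.72 and 3.14 CPM against 1.51, 1.67 and 1.78 CPM. In this bin the study lists a short region without a gene, strongly lowered in the vinclozolin lineage in both cell types. How much of the bin's change lay in that region was not tested. The bin on chromosome 11, from 25700001, lost its call without vinclozolin pool 2, with an edgeR adjusted p of 0.115.

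A shift spread over a whole bin differs from 1 that sits in a few strong windows. The median raised 1 Mb bin had 74.9% of its 10 kb bins higher in the vinclozolin lineage, with a range of 59% to 95.9%, and the median lowered bin had 17.5%, with a range of 7% to 34%, against 51% over all 1 Mb bins. The 10 kb counts add up to the 1 Mb count by which a bin was called, so that these shares are no separate support for the call. The 100 bp windows were also sorted by their summed count in the 6 stromal pools, which did not use the epithelial values. The bins themselves were called on the epithelial counts, so that the direction and separation in their windows partly follow from that call. In the raised bins the ratio of the lineages was up in each class, with log2 values of 0.21 in windows with no stromal count, 0.19 in windows with 24 to 59 counts and 0.10 in windows with 150 or more. In the lowered bins the log2 ratio was -0.04, -0.12 and -0.20 in the same classes. Over all bins it went from 0.11 to 0.00 and -0.08. Set against all bins, the windows of the raised bins were higher by 0.10 to 0.19 and those of the lowered bins lower by 0.12 to 0.16 in each class. In the raised bins the pools of the lineages did not overlap in any class under 150 counts, and in the lowered bins they did not overlap in windows of 60 or more but under 150 counts and overlapped in the other classes.

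**Figure D4:**
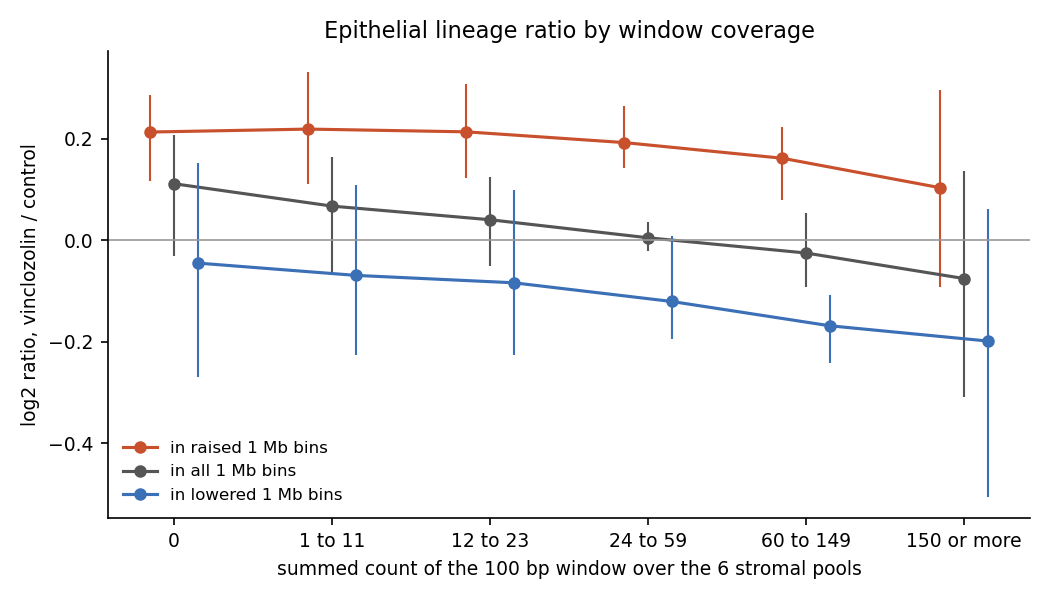
Log2 ratio of mean epithelial CPM, vinclozolin over control lineage (y axis), in 100 bp windows grouped by summed count over the 6 stromal pools (x axis). Lines span the ratio of the lowest vinclozolin pool to the highest control pool and the reverse. The windows of raised bins lie above and those of lowered bins below the windows of all bins in every class.

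Lineage differences were also set against coverage. When the 10 kb bins were ranked by mean CPM and divided into 10 groups of equal number, the mean log2(CPM + 0.1) of the vinclozolin lineage minus that of the control lineage was 0.02 in the lowest group, between -0.01 and 0.00 in the 8 between and 0.03 in the highest. In the highest group the control pools had 3.24, 3.17 and 3.17 and the vinclozolin pools 3.23, 3.20 and 3.24 on this scale, and they overlapped. The difference in this group was 0.0145 to 0.0510 without 1 pool, with 0.0510 without control pool 1, 0.0184 and 0.0145 without control pools 2 and 3, and 0.0173 without vinclozolin pool 3. In the lowest group it was between -0.00273, without vinclozolin pool 2, and 0.0247. The smallest exact permutation p was 0.1, the smallest that 3 against 3 pools allow, and 0.5 after adjustment over the 10 groups. The called 10 kb bins were concentrated in the highest group, which held 120 of the 279 raised and 77 of the 165 lowered bins. A difference of a given size is called more readily in a bin with more counts, and the part of this in the concentration was not tested. Across the 1 Mb bins, which all come from the same libraries, the log2 fold change had a Spearman correlation of -0.30 with the mean CPM of the bin in epithelial cells and of -0.70 in stromal cells, and across the 10 kb bins of 0.02 and -0.16. The deviations of single epithelial pools at 1 Mb also correlated with coverage. The Spearman values were -0.36, 0.46 and 0.45 for control pools 1, 2 and 3 and 0.27, -0.50 and -0.18 for vinclozolin pools 1, 2 and 3. From the lowest to the highest of 5 groups of 1 Mb bins by mean CPM, the median log2 fold change went from 0.02 to -0.01 in epithelial and from 0.08 to -0.06 in stromal cells. The part of this relation in the called bins and in the direction that both cell types shared was not tested.

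The stromal pools came from the same groups of rats as the epithelial pools, so that they are a second measurement on the same animals. Of the 50 raised 1 Mb bins 49 were also higher in the stromal vinclozolin pools, with a median log2 fold change of 0.13, and all 46 lowered bins were also lower, with a median of -0.08. Over all 1 Mb bins the direction was shared by 74.1%. At 10 kb the direction was shared by 277 of the 279 raised and 161 of the 165 lowered bins, with stromal medians of 0.40 and -0.39, against 61.2% of all bins. The chromosome 8 bin rose from 320 ± 11.5 to 407 ± 12.8 CPM (SD, n = 3) in stromal cells and the bin of Lrp5 went from 408 ± 8.29 to 387 ± 8.31 CPM.

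**Figure D5:**
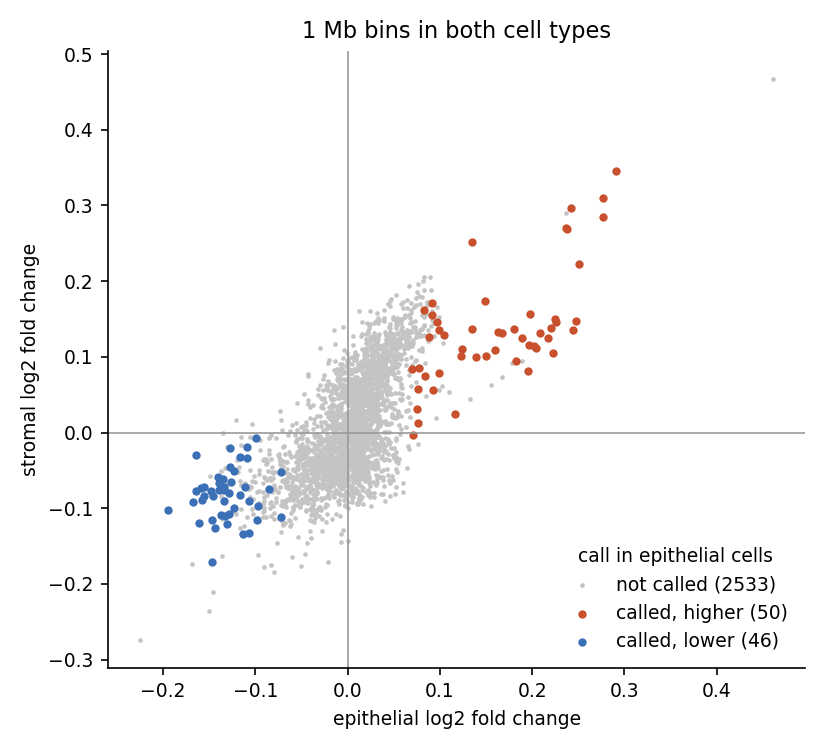
Log2 fold change of the vinclozolin over the control lineage in stromal cells (y axis) against epithelial cells (x axis) for 2629 bins of 1 Mb, coloured by the call in epithelial cells. The 46 lowered bins all lie below 0 in stromal cells and 49 of the 50 raised bins lie above 0.

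The difference between the cell types was tested as an interaction over all 12 pools. No bin was called at 10 kb (0%, with 17430 bins at an unadjusted p under 0.05) or at 1 Mb (0%, with 537 bins), and the smallest adjusted p was 0.293 and 0.149 in edgeR's quasi-likelihood test. For the named bins the interaction was between -0.08 and 0.08 on the log2 scale at 1 Mb. At 1 Mb this rested on how the pools were treated. An epithelial pool and the stromal pool with its lineage and number deviated together from their group means at this scale, and with the pool as a replicate block across the cell types 300 of the 2629 bins were called, 152 in which the epithelial difference was the higher and 148 in which it was the lower. This block assumes that pools with equal lineage and number share their rats, which the labels do not state. Without epithelial vinclozolin pool 1 the unblocked test called 35. At 10 kb the blocked test called 0 bins.

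The largest fold at 1 Mb was in a bin that was not called, at 20000001 to 21000000 of chromosome 12, which is named here after its values were seen. The epithelial control pools had 224, 170 and 145 CPM and the vinclozolin pools 242, 250 and 249 CPM, a log2 fold change of 0.46 ± 0.12 (SE; edgeR adjusted p = 0.0572). The stromal pools of the same numbers had 217, 163 and 151 CPM and 236, 249 and 246 CPM. The 3 control pools were thus apart from each other in the same order in both cell types, while the vinclozolin pools lay close together. At 200 kb 5 adjacent bins of this place were called, with log2 fold changes of 0.41 to 0.63. The lowest fold among bins not called, at 46000001 to 47000000 of chromosome 14, also followed the pool number, with 1712, 1348 and 1491 CPM in the epithelial and 1837, 1543 and 1678 CPM in the stromal control pools.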

How the data were processed

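Methylated DNA was captured by MeDIP and sequenced in 12 pools. Per the labels and the methods of the study, the authors cleaned the reads (Trimmomatic), aligned them with Bowtie2 to the rat build Rnor 6.0, made sorted files with SAMtools and used MEDIPS to count reads in windows of 100 bp. The deposited counts were whole numbers without normalization that ended at 300 in every pool. The deposited RPKM values were used only to read the library totals behind them, for 1 alternative. The fold changes and p-values of the authors' own comparisons, which the tables also hold, were not used.

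Counts of 26187330 autosomal windows were summed into bins and tested with edgeR 4.0.16 in R 4.3.3 (glmQLFit, glmQLFTest), 3 vinclozolin against 3 control pools, on bins with a summed count of at least 60, with TMM factors of the 10 kb bins and Benjamini-Hochberg adjustment at 0.05. The interaction test used all 12 pools. Deciles of coverage were compared with a 2-sided exact permutation test. The tests were run on simulated counts of independent bins with 1 fixed dispersion per bin size. These counts lack the deviations that bins of a real pool share, so they cannot show how the tests behave under them. Alternatives were DESeq2 1.42.0, the exact test of edgeR, other scalings, filters, bin edges and bin sizes, thinning, the replicate block and leaving out each pool. Named bins are the 6 with the smallest p in each direction at each size (adjacent 10 kb bins counted once), the longest runs and the outermost autosomes. Of these, 1 lowered 10 kb bin is not reported here. Per the methods, the tissue of each group of rats was split into both cell types. The labels do not state whether pools with 1 number share their rats across cell types. Within a lineage, epithelial and stromal deviations at 1 Mb correlated at 0.216 to 0.613 for equal numbers. For unequal numbers the range was -0.525 to 0.237, so the ranges overlapped slightly. At 10 kb the equal-number pairs gave only -0.0283 to 0.0249. The block across cell types was applied on the assumption that equal numbers share rats. The members and lists were chosen with earlier results of these data known. No genome or annotation of Rnor 6.0 was used here, so CpG content and fixed gene lists were not analysed.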

Additional observations from a re-analysis of the deposited data

Results flagged for a closer look

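Outside the autosomes, the share of counts on chromosome Y did not overlap between the lineages, which at 3 against 3 pools cannot pass a threshold of 0.05. Chromosome Y took 0.128% ± 0.000808 of the counts of the epithelial vinclozolin pools and 0.122% ± 0.0023 of those of the epithelial control pools (SD, n = 3), and each vinclozolin pool lay above each control pool (2-sided exact permutation p = 0.1, the smallest that 3 against 3 allow). In stromal cells the shares were 0.13% and 0.122%. Chromosome X took 3.07% ± 0.0275 against 3.01% ± 0.0693 of the counts, with overlapping pools (exact permutation p = 0.3). In stromal cells it took 3.15% ± 0.0385 against 2.97% ± 0.0347, and each vinclozolin pool lay above each control pool.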

How the results depend on the processing

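At 10 kb, 444 bins were called, against 134 in 2 kb bins, 1084 with the exact test of edgeR, 849 with loess offsets by coverage (343 higher and 506 lower, against 279 and 165) and 173 with the pool number as a replicate block. Leaving out 1 pool gave 23 to 1593. At 1 Mb, 96 bins were called, against 386 in 200 kb bins, 0 in 5 Mb bins (127 at an unadjusted p under 0.05 with edgeR's quasi-likelihood test), 490 with DESeq2, 249 with the exact test and 150 with loess offsets, and leaving out 1 pool gave 3 to 593. The 1 Mb interaction went from 0 to 300 with the replicate block and to 0 to 35 without 1 pool. Without TMM 8 autosomes were called, 4 in each direction, and without 1 pool 0 to 4. The lowest group of coverage fell to -0.00273 without vinclozolin replicate 2, and was between -0.00273 and 0.0247 without 1 pool. The causes were not tested. Other scalings (including the library totals of the authors, chosen after seeing the data), filters, shifted bins, thinning and removal of the top window of each bin left the counts within 1.5 times. The named bins kept their direction in all 438 alternative values computed. Of these, 15 of 228 at 1 Mb and 4 of 210 at 10 kb missed the threshold. All misses at 1 Mb came from leaving out 1 pool, and only the 1 Mb bins of chromosomes 6, 8 and 9 had none. Control and vinclozolin pools of the same number were not paired in the main test. Their deviations correlated at -0.583 to -0.244 at 1 Mb, against -0.411 to 0.492 for pools of different number. Deviations from a mean of 3 pools cannot show whether pools of the same number shared a batch. The fixed gene lists and their alternatives were not run. With 3 pools a side, the exact permutation test cannot give a p under 0.1.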
